A study of Mus musculus with 8 samples.

Results

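The Hox gene clusters are 4 groups of homeobox genes, Hoxa, Hoxb, Hoxc and Hoxd. They were taken as the protein-coding mm10 RefSeq genes whose symbol is Hoxa, Hoxb, Hoxc or Hoxd followed by a number, which gave 39 genes of the 21887 protein-coding genes in the annotation. Each cluster was read as 1 window, from 5 kb before its first gene to 5 kb after its last. The Hoxa window (chr6:52150367-52265880, 11 genes) covered 115.514 kb, the Hoxb window (chr11:96189316-96373254, 10 genes) 183.939 kb, the Hoxc window (chr15:102916131-103041856, 9 genes) 125.726 kb and the Hoxd window (chr2:74663225-74770142, 9 genes) 106.918 kb. By gene number, 12 members were anterior (1 to 4), 11 middle (5 to 8) and 16 posterior (9 to 13).

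The series profiled mouse embryonic fibroblasts (MEFs) by NOMe-seq at day 0, as control cells, and at day 1 of reprogramming induced by Etv2, an ETS-family transcription factor required for endothelial and blood development. On each day 2 libraries were made from cells treated with M.CviPI and 2 from cells without the enzyme, which gives 4 groups and 8 libraries. M.CviPI methylates cytosines that follow a guanine (GpC) where DNA is accessible, and the untreated libraries measure the background read in the same way. The labels do not name the strain, do not say how Etv2 was delivered, and leave unstated if duplicates were independent cultures, so p-values measure a spread that may be technical. The assay reads DNA only, so the fibroblast label could not be checked against marker expression and no level of Hox RNA is given.

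Hox genes encode homeodomain transcription factors that give cells their position along the head-to-tail axis. Their order along the chromosome follows the order in which they act along the body, and fibroblasts keep the Hox pattern of the place they came from. In cells where a Hox gene is silent its chromatin is a classical target of Polycomb complexes, while trithorax proteins keep active Hox genes on, and the TALE homeodomain proteins of the Pbx, Meis and Pknox families bind DNA together with Hox proteins.

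The measure throughout is the GpC level, the methylated reads divided by all reads over the covered sites of a region, in percent. Coverage of the Hox windows was thin. The treated libraries held 310 and 294 covered sites on day 0 and 386 and 442 on day 1, and the untreated libraries held 335 and 365 on day 0 and 545 and 665 on day 1. The deepest site in the windows had 6 reads, and 83.3 to 93.2% of the sites had exactly 3, the fewest reads at any listed site. A fragment that crosses several sites is counted at each of them, so the sites came in short runs: with sites up to 150 bp apart joined, the windows held 83 and 86 such runs in the day 0 treated libraries and 111 and 114 in the day 1 treated libraries. The 95% binomial (Clopper-Pearson) intervals drawn below cover counting error only and are too narrow for this reason.

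Different libraries read different sites. No Hox site was covered in all 4 treated libraries, and the 2 treated libraries of a day shared 9 sites on day 0 and 4 on day 1. Of the sites read in treated libraries, 15 were read on both days, which is 2.52% of the 595 sites of day 0 and 1.82% of the 824 sites of day 1. A difference between days therefore compares neighbouring sites in the same regions and seldom the same cytosine.

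Promoter sequences show what the assay could read in the clusters. RefSeq windows on GRCm38.p6, from 250 bases before to 50 bases after the start, were matched for 22 of the 39 genes, some with more than 1 start, in 24 windows. They held a median of 42 GpC sites, against 34 over all promoter windows, and a median GC content of 57.7% against 52.7%. Of the 24 windows, 19 had no treated read at all. The treated libraries read 0.0417 to 0.458 sites per Hox window. Over the 31372 other autosomal promoter windows the rate was 0.207 to 0.246, which lies within the Hox range. Treated reads fell in 3 windows on day 0, in 3 on day 1 and on both days in 1, that of Hoxa5. The 250 bases upstream of 3 starts follow, 5′ to 3′ on the gene's strand. Hoxa5 is shown because it was read on both days, and Hoxa6 and a second start of Hoxd11 were chosen after their values were seen, because they had the most treated reads. A capital marks a GpC site read in a treated library, as C where the cytosine lies on the printed strand and as G where it lies on the other. Whether an exon of a longer transcript falls in these windows was not examined.
Hoxa5 (chr6:52204588-52204837, minus strand): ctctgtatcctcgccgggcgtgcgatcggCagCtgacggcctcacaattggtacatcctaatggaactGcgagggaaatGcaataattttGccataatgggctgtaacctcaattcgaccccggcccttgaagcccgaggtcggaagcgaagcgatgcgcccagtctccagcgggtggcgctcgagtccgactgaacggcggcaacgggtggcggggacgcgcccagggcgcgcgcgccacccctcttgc
Hoxa6 (chr6:52208673-52208922, minus strand): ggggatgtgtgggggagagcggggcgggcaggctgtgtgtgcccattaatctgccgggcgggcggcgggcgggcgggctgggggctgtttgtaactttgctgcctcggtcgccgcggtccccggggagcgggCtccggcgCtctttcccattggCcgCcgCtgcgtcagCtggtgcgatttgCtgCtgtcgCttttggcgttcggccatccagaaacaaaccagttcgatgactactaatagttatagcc
Hoxd11 second start (chr2:74682073-74682322, plus strand): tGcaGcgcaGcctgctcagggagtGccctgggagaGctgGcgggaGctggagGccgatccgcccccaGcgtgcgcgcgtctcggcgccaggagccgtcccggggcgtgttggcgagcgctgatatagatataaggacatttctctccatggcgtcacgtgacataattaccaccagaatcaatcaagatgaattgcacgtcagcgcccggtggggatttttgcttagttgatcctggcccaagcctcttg

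Over the capitals, Hoxa5 had 0 of 6 reads methylated in the first treated library of day 0 and 3 of 9 reads (33.3%) in the first treated library of day 1. Hoxa5, a middle gene, acts in lung and skeletal patterning. The Hoxa6 sites had 2 of 27 reads methylated (7.41%) in the first treated library of day 0, and the Hoxd11 sites had 13 of 27 (48.1%) in the second treated library of day 1. Hoxd11 is a posterior gene of limb and kidney development. Neither of these had a treated read on the other day, so they give no comparison between days. Promoters outside the clusters had GpC levels of 50.1 and 50.7% in the day 0 treated libraries and of 44.4 and 45.2% in those of day 1. The motif CCGGAA, the core that many ETS proteins prefer, occurred on either strand in 2 of the 24 Hox windows of 300 bases (8.33%) and in 14.9% of all promoter windows. Its inner part GGAA, which CCGGAA contains, occurred in 91.7% of the Hox windows and in 96.0% of all. None of the 3 stretches printed above holds CCGGAA.

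Pooled over the 4 clusters, the treated GpC level was higher on day 1 than on day 0. It was 29.0 and 30.8% in the day 0 treated libraries and 36.8 and 31.6% in the day 1 treated libraries, and the days did not overlap. In the 61 blocks of 1000 bp read on both days they did overlap, at 24.4 and 32.6% on day 0 and 38.3 and 29.3% on day 1 (exact permutation p = 0.667). The difference over all sites was 4.29 points, from 29.9% ± 1.3 to 34.2% ± 3.6 (SD, n = 2 each), and the exact permutation test of 2 against 2 libraries gave its smallest possible p, 0.333 (two-sided; adjusted 0.5 over the 9 planned comparisons). Without the first treated library of day 1 the difference was 1.72 points, and without the second it was 6.86 points. The untreated background was 2.04 and 2.34% on day 0 and 0.991 and 1.79% on day 1, also without overlap, a difference of -0.797 points (exact permutation p = 0.333). Treated less untreated, the level was 27.7 points on day 0 and 32.8 points on day 1. The day change of that net value was 5.08 points (exact permutation p = 0.0556, the smallest the test allows, adjusted 0.5). It was 2.51 points without the first treated library of day 1 and 7.66 without the second. Other autosomal sites moved the same way without overlap, by 1.27 points in treated and -1.24 points in untreated libraries. Their untreated level was 2.31 and 2.37% on day 0 and 1.10 and 1.09% on day 1. The direction of these changes was therefore not particular to the Hox windows.

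**Figure D1:**
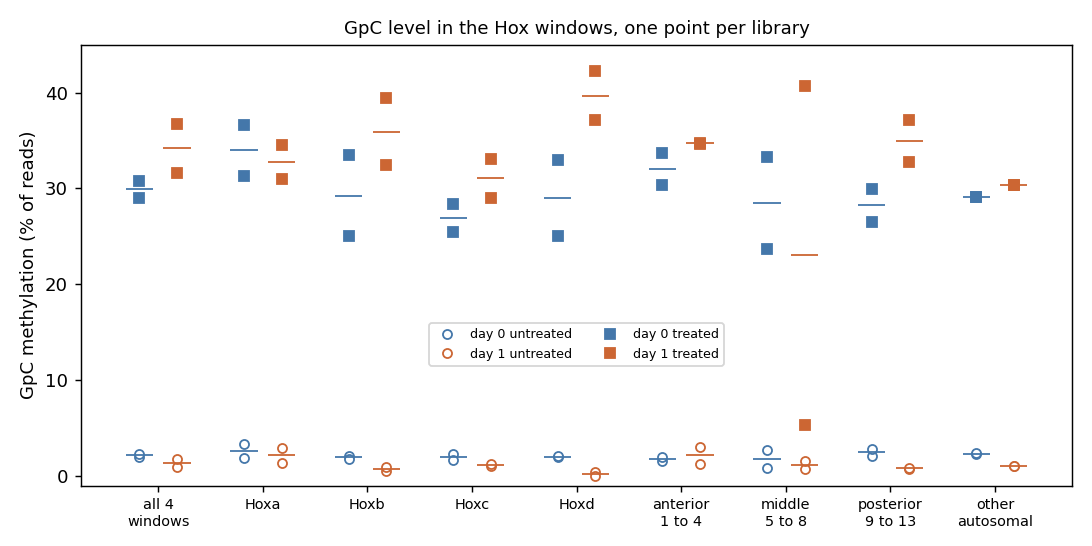
GpC level in percent of reads (vertical axis) for the 4 Hox windows together, each cluster, each position class and all other autosomal sites. Each point is 1 library (open circles untreated, filled squares treated, blue day 0, orange day 1) and each short line is the mean of 2 libraries; the treated Hoxc and Hoxd libraries do not overlap between days, and the 2 treated day 1 libraries of the middle class lie at 40.7 and 5.38%.

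Against the rest of the autosomes the Hox windows did not stand apart by the tests the design allows. Other autosomal sites had treated levels of 29.2 and 29.1% on day 0 and of 30.4% in both day 1 libraries. The Hox level less the other autosomal level was -0.166 and 1.74 points on day 0 and 6.36 and 1.25 points on day 1. It was higher in 3 of 4 treated libraries, with a mean of 2.30 points (exact sign-flip permutation p = 0.25, in a test that cannot reach 0.05 with 4 libraries). The day change in Hox exceeded that of the other sites by 3.02 points (exact permutation p = 0.667; adjusted 0.75). Without the first treated library of day 1 these means were 0.94 and 0.462 points, and without the second the latter was 5.58 points. The mean of 2.30 points was 0.124 in blocks read on both days, 0.711 with no read cap and -0.272 with at least 4 reads per site. In the untreated libraries Hox less other was -0.266 and -0.0306 points on day 0 and -0.105 and 0.697 points on day 1. The mean was 0.0738 points (exact permutation p = 1), and only the last library was above 0. That library holds a single run of methylated sites that is described further on.

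By cluster, the treated libraries of the days overlapped in Hoxa and Hoxb and did not in Hoxc and Hoxd. In the Hoxa window, which ends with Hoxa13 of the limb and urogenital tract, the treated libraries read 31.3 and 36.7% on day 0 and 34.5 and 31.0% on day 1, and the days overlapped. The Hoxb window read 33.5 and 25% on day 0 and 39.4 and 32.4% on day 1, and here too the days overlapped. The Hoxc window read 25.4 and 28.4% on day 0 and 33.1 and 29.0% on day 1, with both day 1 libraries above both of day 0. The Hoxd window, whose posterior genes pattern the digits, read 25 and 33.0% on day 0 and 42.2 and 37.1% on day 1, again without overlap. So 2 of the 4 windows were higher on day 1 without overlap and 0 of 4 lower. Among 14074 windows of 100 kb with at least 20 reads in every treated library, 22.1% were higher on day 1 without overlap and 12.1% lower.

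None of the 4 clusters passed an adjusted p of 0.05 in the edgeR fit. That fit held 10881 windows, the 4 Hox windows and 10877 others of 100 kb. The treated change in log2 odds of methylation was -0.08 for Hoxa, 0.45 for Hoxb, 0.30 for Hoxc and 0.71 for Hoxd (edgeR adjusted p = 0.99995 for each), and the median over all windows was 0.09. At an unadjusted p under 0.05 the count of Hox windows was 0 of 4 as well, and limma called 0 of 4. Over all windows edgeR called 0.00919% and limma 0. The limma standard errors were 0.48 for Hoxa and 0.62 for Hoxd on the log2 scale, so the Hoxd change was near 1 standard error.

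The untreated background of the Hoxd window was lower on day 1 in both fits, at an adjusted p under 0.05 only in limma. It was 2.02 and 2.07% on day 0 and 0.42 and 0.0% on day 1, which is 0 of 181 reads in the second library. Its untreated change was -2.76 in log2 odds (edgeR adjusted p = 0.285), where limma gave -2.06 ± 0.62 (SE; adjusted p = 0.0302). The other clusters had untreated changes of -0.23 for Hoxa, -1.25 for Hoxb and -0.76 for Hoxc, and did not pass in either fit. The Hoxa value, and its net value below, include a single run of sites in 1 library that is described further on. The median over all windows was -1.07, and edgeR called 1.43% of windows and limma 19.4%. Of the edgeR calls 0 of 156 were higher on day 1, and after each library was centred on its median 18 of 21 were. For the net change, treated less untreated, edgeR called 0 of 4 Hox windows and 0.597% of all, 65 of 65 higher on day 1, against 0 of 3 after centring. Its values were 0.15 for Hoxa, 1.69 for Hoxb, 1.06 for Hoxc and 3.47 for Hoxd (adjusted p = 0.220), beside a median of 1.17 over all windows.

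By position along the clusters, the difference between anterior and posterior genes did not pass the test. Sites were given to the nearest member, and sites inside overlapping members to the shorter one. The anterior genes Hoxa3, Hoxb3 and Hoxd3 have long annotated spans of 44009, 40830 and 36279 bp. Sites just upstream of the middle genes Hoxa5 and Hoxa6 lie in the Hoxa3 span and count as anterior. The anterior genes read 33.7 and 30.4% on day 0 and 34.7% in both treated libraries of day 1, without overlap between days. The posterior genes read 26.5 and 30.0% on day 0 and 37.1 and 32.8% on day 1. They did not overlap between days either, as long as the interval described next is included. Within each treated library, posterior less anterior was -7.16 and -0.399 points on day 0 and 2.39 and -1.89 points on day 1, a mean of -1.77 points (exact sign-flip permutation p = 0.625; adjusted 0.75). The middle genes read 23.7 and 33.3% on day 0 and 40.7 and 5.38% on day 1. The low value rests on 93 reads in 11 runs of sites, against 182 reads in 20 runs in the other library of that day.

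Among posterior sites the days were far apart in the long stretch between Hoxb13 and Hoxb9, which was singled out after its values were seen. This interval (chr11:96196611-96271329, 74.719 kb) separates Hoxb13, known from prostate and tail development, from the rest of its cluster. Its treated level was 19.4 and 20% on day 0, from 36 and 90 reads, and 41.2 and 36.9% on day 1, from 260 and 195 reads. The untreated libraries there read 5.88 and 2.15% on day 0 and 0.0 and 1.38% on day 1. The rest of the Hoxb window read 37.1 and 28.3% on day 0 and 36.2 and 29.5% on day 1, a difference of 0.156 points. Without the interval the 4 clusters together read 29.4 and 32.0% on day 0 and 35.6 and 30.7% on day 1, which overlap, a change of 2.46 points. The posterior genes without it read 27.1 and 32.7% on day 0 and 33.8 and 31.4% on day 1, which overlap as well.

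Sites near gene ends, inside genes and between genes gave treated levels in the same range. Near gene ends the treated libraries read 27.9 and 28.6% on day 0 and 35.5 and 29.8% on day 1, without overlap. Inside genes they read 32.5 and 29.8% on day 0 and 36.1 and 34.2% on day 1, also without overlap. Between genes they read 25.8 and 34.7% on day 0 and 38.2 and 30.3% on day 1, and the days overlapped.

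Coverage decided how far single members could be described. Counting the sites given to each gene as above, 17 of the 39 members had reads in all 4 treated libraries and 1 (Hoxa4) had none. At least 10 reads in each treated library were found at 12 members. Of the 34 members with treated reads on both days, the pooled level was higher on day 1 in 15 and lower in 19, with a median difference of -2.90 points. This count had no read limit and was not set beside one over all genes. It includes members such as Hoxd10, with 9 treated reads on day 0 and 6 on day 1, and Hoxd13, with 6 and 3. Of the 12 well-read members, 4 were higher on day 1 without overlap (Hoxa3, Hoxb13, Hoxb9 and Hoxd3), 1 was barely lower (Hoxc4) and 7 overlapped. The same measure over all autosomal protein-coding genes, where non-Hox neighbours also take sites, gave 14 Hox members with that coverage. Of these 3 were higher without overlap (Hoxa3, Hoxb9 and Hoxd3) and 0 lower, while 23.4% of all 11927 such territories were higher and 12.6% lower.

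Hoxa3, an anterior gene that acts in the thymus, parathyroid and neck, was given the most reads. Its annotated span of 44009 bp encloses Hoxa4, Hoxa5 and Hoxa6, and sites in that span outside those genes were given to Hoxa3. The upstream sites of Hoxa5 and Hoxa6 printed above are among them, so the values are not those of Hoxa3 alone. The treated level of the sites given to Hoxa3 was 25 and 30.6% on day 0 and 34.3 and 37.6% on day 1, from 85 to 170 reads a library. Both day 1 libraries were above both of day 0, and the untreated libraries read 1.16 and 3.12% on day 0 and 2.40 and 8.21% on day 1. Hoxd3, its paralog in the Hoxd cluster and a gene of the upper neck vertebrae, read 27.3 and 23.5% on day 0 and 40.4 and 47.6% on day 1, from 21 to 57 reads a library. Its days were farther apart than those of Hoxa3, at lower coverage.

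Among posterior members, Hoxb9, a gene of rib and limb position, read 18.5 and 21.4% on day 0, from 27 and 28 reads, and 42.4 and 39.6% on day 1, from 139 and 154 reads. Hoxb13 read 23.1 and 18.5% on day 0 and 40.4 and 30.0% on day 1. Neither overlapped between days, and most of their treated reads lie in the interval described above. Hoxa10, which acts in the uterus and lumbar spine, read 34.7 and 37.0% on day 0 and 25 and 37.3% on day 1, and the days overlapped. Hoxa13 overlapped as well, at 16.7 and 37.0% on day 0 and 26.2 and 21.3% on day 1. Hoxc12 also overlapped, at 15.4 and 33.3% on day 0 and 17.9 and 33.3% on day 1.

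Of the other well-read anterior and middle members, Hoxc4 read 29.0 and 33.3% on day 0 and 15.2 and 28.9% on day 1. Both day 1 libraries were below both of day 0, but barely. The closest pair read 28.99% on day 0, from 69 reads, and 28.92% on day 1, from 83 reads. Hoxc6, a middle gene, read 20 and 19.5% on day 0 and 31.0 and 0.0% on day 1, the last from 15 reads. For Hoxc6 the spread between the 2 day 1 libraries exceeded the difference between days.

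**Figure D2:**
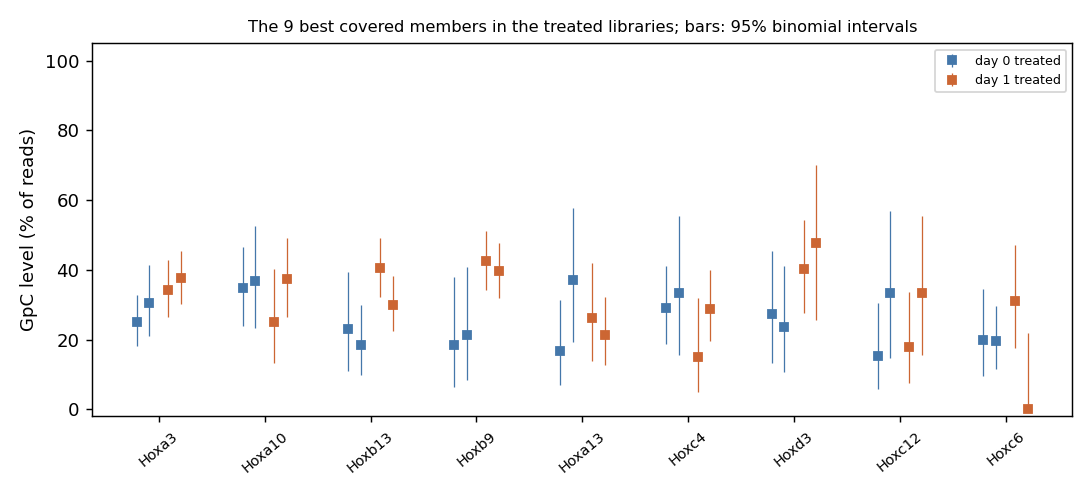
Treated GpC level in percent of reads for the 9 best covered members, in order of coverage. Each square is 1 library (blue day 0, orange day 1) and each bar its 95% binomial interval. Hoxa3, Hoxb13, Hoxb9 and Hoxd3 have both day 1 squares above both day 0 squares. Hoxc4 has both below, the closest pair at 28.99% on day 0 and 28.92% on day 1.

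A locus defined as the gene with 1000 bp on each side gives a measure that could be set against all genes. At least 10 reads in every treated library were found at 6 of the 39 members, and of these 2 were higher on day 1 without overlap (Hoxa3 and Hoxd3) and 2 lower (Hoxa10 and Hoxc4). Among 10713 gene loci with that coverage, 21.2% were higher and 13.5% lower. With at least 20 reads in every library, 4 members entered the edgeR fit of 5655 loci. Their changes in log2 odds were 0.55 for Hoxa3, 0.83 for Hoxd3, -0.30 for Hoxa10 and -0.80 for Hoxc4 (edgeR adjusted p = 0.999 for each). None of the 4 was called in the untreated or net fits, where edgeR called 5.23 and 3.54% of loci. Their untreated changes were 1.68 for Hoxa3, 2.26 for Hoxa10, 0.59 for Hoxc4 and -1.74 for Hoxd3, beside a median of -1.01 over all loci. The Hoxa10 value, like its net value below, rests on an untreated level of 0% on day 0, from 45 and 24 reads. On day 1 that level was 1.49 and 0.73%. The net changes, which are differences of log2 odds changes, were -1.12 for Hoxa3, -2.56 for Hoxa10, -1.40 for Hoxc4 and 2.57 for Hoxd3, beside a median of 1.10. On that scale the Hoxa3 value was positive in the treated fit and negative in the net fit. In percent, the Hoxa3 locus read 23.2 and 32.0% on day 0 and 35.9 and 35.2% on day 1 in treated libraries. In untreated libraries the Hoxa3 locus read 0.816 and 2.68% on day 0 and 2.23 and 6.90% on day 1. In limma the untreated changes of Hoxa10 (-0.70) and Hoxc4 (-0.09) and the net change of Hoxa10 (0.34) had the opposite sign. The treated fit called 0.0% of loci, with 176 loci at an unadjusted p under 0.05, and limma called 0, with 70 loci at that p.

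Along the windows, the level varied from place to place on both days. Of 55 bins of 10 kb, 33 had at least 20 treated reads on both days. Their pooled level spanned 13.3 to 69.2% on day 0 and 9.09 to 54.2% on day 1; 15 bins were higher on day 1 and 18 lower, with a median difference of -0.476 points. Among autosomal bins with that coverage 54.3% were higher on day 1, with a median difference of 1.72 points.

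**Figure D3:**
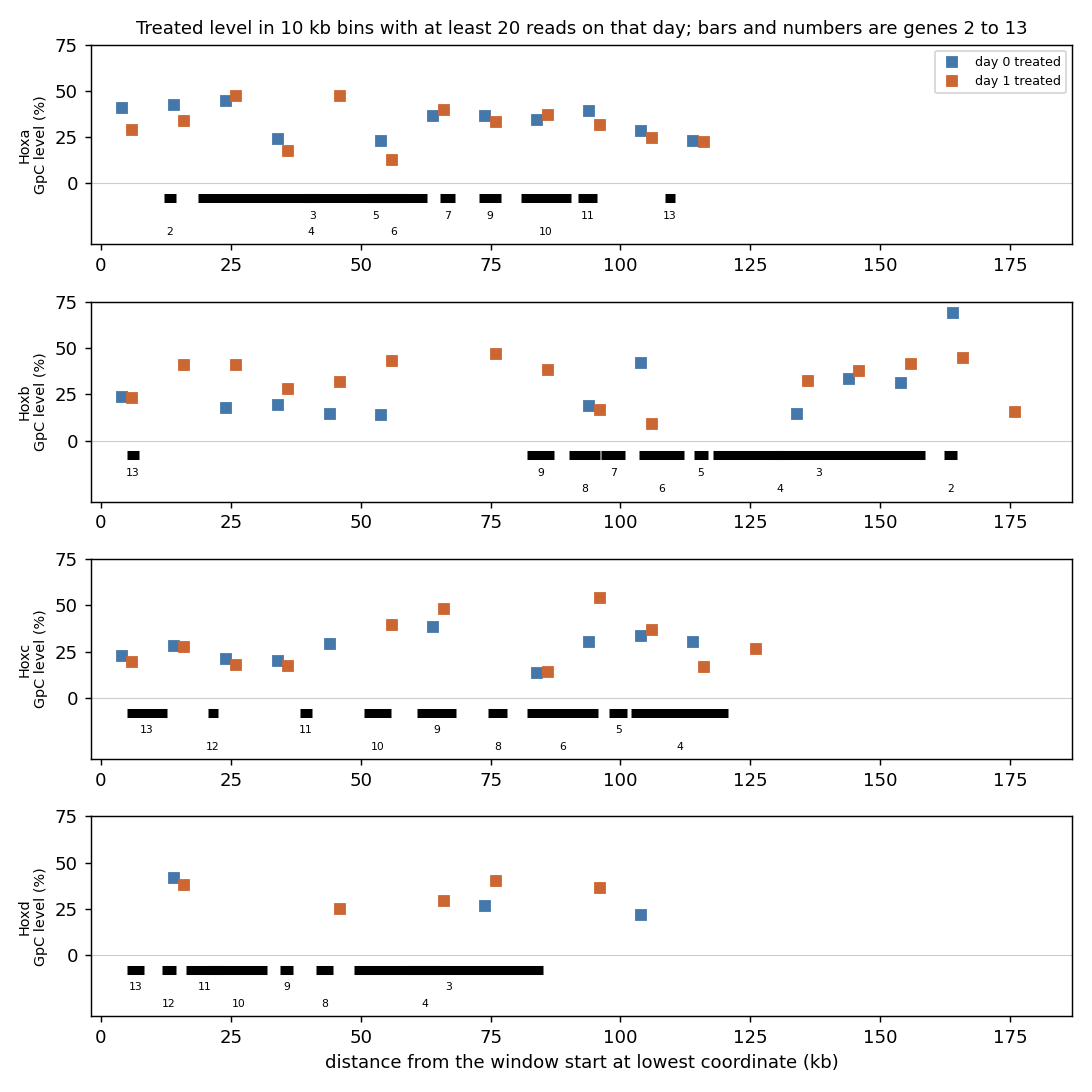
Pooled treated GpC level in percent (vertical axis) in bins of 10 kb along each Hox window (horizontal axis, kb from the end of lowest coordinate), for bins with at least 20 reads on that day. Squares are bins (blue day 0, orange day 1) and black bars with numbers are the member genes numbered 2 to 13; in Hoxb the bins between genes 13 and 9 lie higher on day 1, while in Hoxa most bins of the 2 days lie close together.

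Runs of sites with little methylation were less frequent in the Hox windows than elsewhere in 3 of 4 treated libraries. Among runs with at least 9 reads, a level of at most 10% was found in 7.14 and 9.76% of Hox runs on day 0 and in 6.67 and 14.9% on day 1. Elsewhere on the autosomes the shares were 17.2% in both day 0 libraries and 14.5 and 14.4% on day 1. A level of at least 50% was found in 16.7 and 24.4% of Hox runs on day 0 and in 23.3 and 20.3% on day 1, above the 14.7, 14.6, 15.5 and 15.6% of other runs in each library. These shares rest on few Hox runs, 42 and 41 on day 0, and the differences were not tested.

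The clusters together were read more densely than the other autosomal sequence. Covered sites per 100 kb over the 4 windows pooled were 2.22 to 3.79 times those of the other autosomal sequence over the 8 libraries, and single windows went lower. Hoxa was the densest of the 4 clusters in 8 of 8 libraries. Relative to the rest of its own chromosome, the median ratio over libraries was 2.60 for Hoxa (1.69 to 3.99), 1.58 for Hoxc (1.12 to 2.13), 1.49 for Hoxd (0.999 to 3.68) and 1.28 for Hoxb (0.869 to 1.75). The part of site density in the levels above was not tested.

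**Figure D4:**
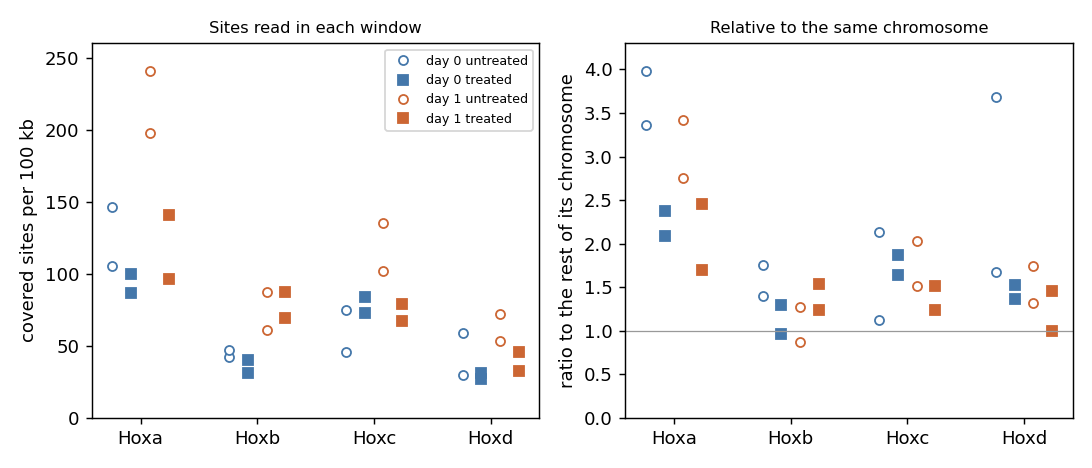
Covered sites per 100 kb of each Hox window (left) and their ratio to the rest of the same chromosome (right, line at 1). Each point is 1 of the 8 libraries (open circles untreated, filled squares treated, blue day 0, orange day 1); Hoxa has the highest site density in every library.

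In the untreated day 1 libraries a single run of 18 sites in the span of Hoxa3 (chr6:52212042-52212224) stood out. In the second library it had 17 of 54 reads methylated (31.5%), which is 44.7% of all methylated reads in the Hox windows of that library. Without it the background there was 1.02%, close to the 0.991% of the other library. Within 1000 bp the day 0 untreated libraries had 0 of 19 and 0 of 56 reads methylated, and the other day 1 untreated library had no reads. This run also lies behind the 8.21% given for Hoxa3 above, and it lies within the annotated span of that gene, so it is part of the untreated and net locus values of Hoxa3. In the Hoxa window it held 17 of the 36 methylated untreated reads of day 1. From reads pooled over libraries, the untreated log2 odds change of the Hoxa window was -0.17 with the run and -1.06 without it.

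The genes known to act on or with Hox genes were few in the tested set, and none passed in the treated fit by edgeR or limma. Of 21 Polycomb genes 6 were tested, 2 with a positive and 4 with a negative treated change, Cbx7 (a reader of the Polycomb mark) at -0.45 among them. Of 9 trithorax and H3K27 demethylase genes 2 were tested, Kmt2a at 0.31 and Ash2l at 0.75 in log2 odds. Of 9 TALE cofactor genes 6 were tested, 3 in each direction, from Pbx4 at -0.91 to Meis1 at 1.09. Of 13 upstream regulators 6 were tested, 3 in each direction, from the retinoic acid receptor gene Rarg at -0.96 to Rara at 0.89. None of 14 related homeobox genes had enough reads. Marker loci were as thinly read, with 2 of 10 fibroblast, 1 of 6 endothelial and 2 of 4 blood markers tested and 0 called in the treated fit (edgeR adjusted p = 0.999 for each gene named up to here). In the untreated fit edgeR called 1 marker, the fibroblast gene Fn1 of fibronectin, at -5.77 in log2 odds (adjusted p = 0.0111), beside 5.23% of all loci, and it was the only marker called for the net change, at 5.75 (adjusted p = 0.0305). In limma 4 of these genes passed in the untreated fit, beside 16.8% of all loci. They were Fn1, Meis2 at -2.74 (adjusted p = 0.0126), the endothelial cadherin gene Cdh5 at -2.24 (adjusted p = 0.0339) and the boundary factor gene Ctcf at -2.42 (adjusted p = 0.0375).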

How the data were processed

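Levels were computed from 8 NOMe-seq libraries, 2 per group as the labels give them. The deposited files give, for each cytosine on mm10 (per the submitters' processing notes), the methylated fraction and the count of reads in columns without a header. For the authors' aligner and caller, the status is: not given in the sources used here. Both units were read from the values, and a methylated count was taken as the fraction times the reads. All covered sites in promoter sequences were GpC not followed by G. Sites over 100 reads were left out, which removed none in the Hox windows. Coordinates and names came from RefSeq tables.

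Levels were pooled per region with Python 3.11.15 and tested by exact permutation. Regions with at least 20 reads in every library were fitted on methylated and unmethylated counts. The fits used edgeR 4.0.16 (quasi-likelihood, Benjamini-Hochberg adjusted) and limma 3.58.1 (log2 odds with a pseudocount of 1). Only the edgeR fit was tested on simulated data. Named members are the 10 with the most reads in their poorest treated library and those with promoter reads on both days, beside those said to be chosen later. 1 of the 10 is not reported here. Other lists name up to 3 genes of smallest p. Members, gene lists and tests were chosen with earlier results of these data known.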

Additional observations from a re-analysis of the deposited data

How the results depend on the processing

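The treated day change of the Hox windows kept its sign in the 14 alternatives that moved it, from 1.72 to 14.8 points, the untreated change in 14 and the net change in 17, from 2.51 to 15.9 points. The read caps could not move these Hox values. Hox less other autosomal sites in untreated libraries turned to -0.0185 with 20 kb flanks, -2.11 with no read cap, -0.203 with at least 4 reads per site and -0.295 without Hoxa, and ran from -0.134 to 0.187 points with 1 library left out. With at least 4 reads per site, Hox less other in treated libraries was -0.272 and posterior less anterior 7.94 points, which ran from -3.15 to 0.0345 with 1 library left out. The Hoxa treated log2 odds change ran from -0.253 to 0.0917 with 1 library left out and was 0.038 without the second treated library of day 1.

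The count of treated windows called was 0 with limma, 2 with 4 libraries and 0 to 1 with 1 library left out. Untreated windows called were 2114 with limma, 10 with 4 libraries, 78 with the replicate block, 21 after centring (18 higher on day 1, against 0 of 156) and 73 to 149 with 1 library left out. Net windows called were 8 with limma, 102 with at least 50 reads, 39 with the replicate block, 3 after centring (0 higher, against 65 of 65) and 6 to 110 with 1 library left out. Gene loci called were 3 with 4 libraries. The cause of these changes was not tested. The replicate numbers did not pair the libraries, and the replicate block cannot change the treated Hox difference of 4.29 points by construction, while its exact permutation p went from 0.333 to 0.5. With 2 libraries a group no permutation test of 2 against 2 could go below 0.333, and most sites had 3 reads.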

Other observations

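The Hox windows also hold 27 lncRNA genes and 6 miRNA genes. Of these Hoxaas3 and Hoxaas2, lncRNA genes of the Hoxa window, were the best read in the treated libraries, counted with 1000 bp on each side. Hoxaas3 had 20.2 and 31.2% of reads methylated on day 0 and 33.3 and 27.5% on day 1. In untreated libraries the Hoxaas3 locus read 0.0 and 1.98% on day 0 and 0.0 and 15.3% on day 1. The last value includes the methylated run described above, which lies in the spans of both Hoxa3 and Hoxaas3. Hoxaas2 had 33.3 and 46.2% on day 0 and 49.0 and 25% on day 1, so its days overlapped. The Haglr locus in the Hoxd window read 18.0 and 33.3% on day 0 and 32.6 and 55.6% on day 1, and overlapped too. The second library of each day had 6 and 9 reads at Haglr.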
